A study of Mus musculus with 6 samples.

Results

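The 10 genes described here encode ligands, receptors and mediators of TGF-beta and activin signalling: *Tgfb1*, *Tgfb2*, *Tgfb3*, *Inhba*, *Ltbp1*, *Tgfbr1*, *Tgfbr2*, *Tgfbr3*, *Smad3* and *Smad7*. They were chosen by name, and all 10 were listed on all 6 plates, among 19069 genes listed on at least 1 plate. Single cells from AOM/DSS colon tumors, which are induced by the carcinogen azoxymethane and the colitis agent dextran sulfate sodium, were sorted into 384-well plates and sequenced by SORT-seq. Each plate held the cells of 1 mouse, and cells had been gated as negative for Epcam, CD45 and CD31, which removes most epithelial, immune and endothelial cells. The 3 Zeb1Fib-Ctrl mice (FibCtrl; plates 1, 3 and 4) were Col6a1Cre transgene negative, and the 3 Zeb1Fib-deleted mice (FibΔZeb1; plates 2, 5 and 6) were Col6a1Cre transgene positive. Both groups carried floxed *Zeb1* alleles, so that the control animals differed by the absence of Cre, and neither had received a further treatment. The Cre was driven by the Col6a1 promoter, which is active in a part of the intestinal fibroblasts. The labels give no ages.

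TGF-beta ligands are secreted in a latent form, which latent TGF-beta binding proteins such as LTBP1 hold in the extracellular matrix. After release they bind TGFBR2 and TGFBR1, with betaglycan (TGFBR3) as a co-receptor, and signal through SMAD2 and SMAD3, while SMAD7 inhibits the pathway. Activin A is a dimer of the inhibin beta A chain encoded by *Inhba*, and it reaches the same SMAD proteins through its own receptors. In the colon, TGF-beta and activins are known for effects on fibroblast activation and on epithelial growth.

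Of 2304 wells, 1233 had 100 to 6000 genes and under 10% mitochondrial transcripts, with 109 to 298 such wells per mouse. The median number of transcripts in these wells ranged from 1687 in mouse 3 to 11164 in mouse 2, and the names of the deposited files place mouse 6 on another flow cell than the other 5 plates, which the labels do not state. *Zeb1*, the targeted gene, was measured at 109 ± 7.54 CPM (transcripts per 1000000 transcripts) in fibroblast-like wells of FibCtrl mice and at 65.8 ± 6.64 CPM in those of FibΔZeb1 mice (SD, n = 3 each). The groups did not overlap, although the difference of -0.71 ± 0.21 (log2, SE) did not pass correction over all genes (edgeR quasi-likelihood test, adjusted p = 0.999). The same 384 well numbers were used on every plate, so shared well barcodes carry no information on shared cells.

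Wells were assigned to cell types by mean marker levels, with limits that were set after the marker values had been seen. This gave 118 telocyte-like, 228 iCAF-like (inflammatory cancer-associated fibroblast-like), 161 other fibroblast-like, 90 pericyte-like, 14 smooth muscle-like, 77 epithelial-like and 431 neutrophil-like wells, and 114 wells stayed unnamed. None of the 10 genes was used for these names. Telocytes are subepithelial fibroblasts, and the telocyte-like wells were led by *Mmp10*, *Mmp13* and *Il1rl1*. The telocyte markers *Nrg1*, *Cxcl14* and *Wnt5a* were among the 10 leading genes, which follows in part from their use to name this class. Within the class, 9 wells with a fibroblast score (mean level of the fibroblast markers) of 2 to 3 held 2831 *Mmp13*, 1625 *Mmp10* and 901 *Il1rl1* transcripts. The other 109 wells held 597, 1184 and 1323. The sort for cells without CD45 still held 431 neutrophil-like wells, 186 of them in mouse 3, where only 17 wells were fibroblast-like. Some wells lay close to the limits of the telocyte and iCAF scores, so these classes are read as ranges rather than types. Whether the scores fall into separate groups was not tested. Of 507 fibroblast-like wells (telocyte-like, iCAF-like and other fibroblast-like), 60 had a telocyte score within 0.25 of the limit and 122 an iCAF score within 0.25 of the limit.

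Among *Inhba* and the 3 *Tgfb* genes, *Inhba* had the highest level in telocyte-like wells (plot of the ligand genes by cell type). Values are CPM, the share of all transcripts other than spike-ins in the summed wells of a mouse and cell type. Since 1 molecule gives 1 tag at its 3′ end, CPM of different genes compare molecules and do not depend on gene length, apart from differences in capture. *Inhba* lies on chromosome 13 (GRCm38, 16011851 to 16031621, plus strand), *Tgfb1* on chromosome 7 (25687002 to 25705077, plus strand), *Tgfb2* on chromosome 1 (186622792 to 186705989, minus strand) and *Tgfb3* on chromosome 12 (86056745 to 86079041, minus strand).

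The stretches of 100 bases before the annotated start of 3 genes are given for the genomic setting of the ligand that led the telocyte-like wells (*Inhba*), of the gene whose profile was most like it (*Mmp10*) and of the ligand that led the pericyte-like wells (*Tgfb2*). Sequences are from RefSeq (GRCm38.p6), 5′ to 3′ on the strand of the gene, at chr13:16011751-16011850, chr9:7502242-7502341 and chr1:186705990-186706089, and capitals mark TGANTCA, the motif bound by AP-1 factors.
Inhba: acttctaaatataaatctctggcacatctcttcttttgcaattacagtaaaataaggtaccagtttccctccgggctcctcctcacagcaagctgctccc
Mmp10: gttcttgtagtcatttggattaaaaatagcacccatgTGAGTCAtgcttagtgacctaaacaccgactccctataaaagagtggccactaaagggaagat
Tgfb2: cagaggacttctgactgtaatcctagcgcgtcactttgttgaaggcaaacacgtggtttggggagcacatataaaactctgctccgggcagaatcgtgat

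TGANTCA, searched on both strands in the 250 bases before the start, was found in 6.75% of 32851 promoters. It was found in that of *Mmp10* (first base 63 before the start) and in 0 of the promoters of the 7 members that were searched. *Smad7*, *Tgfb3* and *Tgfbr3* were not searched. CAGAC, the SMAD box, was found on either strand in 42.2% of promoters, with 2 matches before *Tgfb2* and 0 before *Inhba*. Of the other members searched, *Tgfbr2* had 1 match, and *Tgfb1* and *Smad3* had 0. The separate starts of *Ltbp1* had 1 and 2 matches, and those of *Tgfbr1* had 0 and 1. No match says only that these letters were absent from this window.

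In telocyte-like wells *Inhba* reached 477 CPM in mouse 1, 194 CPM in mouse 2 and 1531 CPM in mouse 4, the 3 mice with at least 10 such wells. In the iCAF-like and other fibroblast-like wells, summed as one reference class, the same mice had 25.6, 23.0 and 21.0 CPM. The lowest telocyte-like value thus lay above all reference values. The log2 fold change within mice was 4.08 ± 0.49 (SE, n = 3 mice; edgeR quasi-likelihood test, adjusted p = 0.00320), which is 16.9-fold. Without FibCtrl mouse 1 the change was 4.16 and no longer passed (adjusted p = 0.147). With all 6 mice, at a minimum of 4 wells per class, it was 5.06 (adjusted p = 0.00755).

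Of 1776 *Inhba* transcripts in kept wells, 1520 (85.6%) were in telocyte-like wells, which made up 9.57% of wells and 18.4% of transcripts. This share rests on the limit for the fibroblast score, which was 2 for telocyte-like wells and 3 for the other fibroblast classes. With a limit of 3, a setting chosen after the data had been seen, 9 wells left the class, and the other 109 held 666 *Inhba* transcripts, 37.5% of those in kept wells. At least 1 *Inhba* transcript was found in 64.4% of telocyte-like wells (95% exact binomial interval 55.1 to 73.0%), in 26.7% of pericyte-like, 12.7% of iCAF-like, 11.2% of other fibroblast-like and 3.71% of neutrophil-like wells. After thinning each well to 1000 barcodes, the share was 23.7% in telocyte-like wells. It was then 5.62% in pericyte-like, 3.42% in other fibroblast-like and 0.877% in iCAF-like wells, against 2.65% in neutrophil-like and 1.37% in epithelial-like wells. No class is known here to lack the transcript. Median depths were 15018 transcripts in telocyte-like and 1433 in neutrophil-like wells. The thinned share of iCAF-like wells was below that of both and is not read as expression.

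*Tgfb1* was rare, with 58 transcripts in the 1233 kept wells. Among the 6 named classes with at least 10 wells in 3 or more mice, its mean level ran from 3.61 CPM in epithelial-like to 9.58 CPM in pericyte-like wells, and neighbouring classes overlapped in every step of this order. Unnamed wells had 6 transcripts (a mean of 28.1 CPM over 5 mice) and smooth muscle-like wells 0. It did not pass the filter on low counts in the comparisons between cell types or genotypes as reported here. *Tgfb2* was measured in telocyte-like wells at 46.7, 65.4 and 98.3 CPM in mice 1, 2 and 4, and *Tgfb3* at 6.66, 10.9 and 0 CPM. For both genes these are values of few transcripts, 14, 48 and 39 for *Tgfb2* and 2, 8 and 0 for *Tgfb3*.

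Within telocyte-like wells *Inhba* exceeded each *Tgfb* gene in each of the 3 mice. The mean log2 ratio of summed transcripts (pseudocount 1) was 5.89 ± 1.23 to *Tgfb1*, 2.91 ± 1.23 to *Tgfb2* and 6.28 ± 2.70 to *Tgfb3* (SD, n = 3). An exact two-sided sign-flip test over 3 mice cannot go below 0.25, and gave p = 0.25 for all 3 ratios (adjusted p = 0.25 over the 3). With all 6 mice the ratios were 5.37 ± 1.53, 3.14 ± 1.61 and 6.03 ± 2.48, above 0 in 6 of 6 mice, with the smallest p the exact test can give for 6 mice (0.03125, also after adjustment). Leaving out the well with most *Inhba* in each of the 6 mice lowered the ratio to *Tgfb2* to 2.33 ± 1.70, above 0 in 5 of 6 mice (exact p = 0.0625). *Inhba* accounted for 90.0% of the 1688 transcripts of the 4 ligand genes in telocyte-like wells, 14.4% of 397 in iCAF-like, 15.4% of 253 in other fibroblast-like and 10.7% of 525 in pericyte-like wells.

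**Figure D1:**
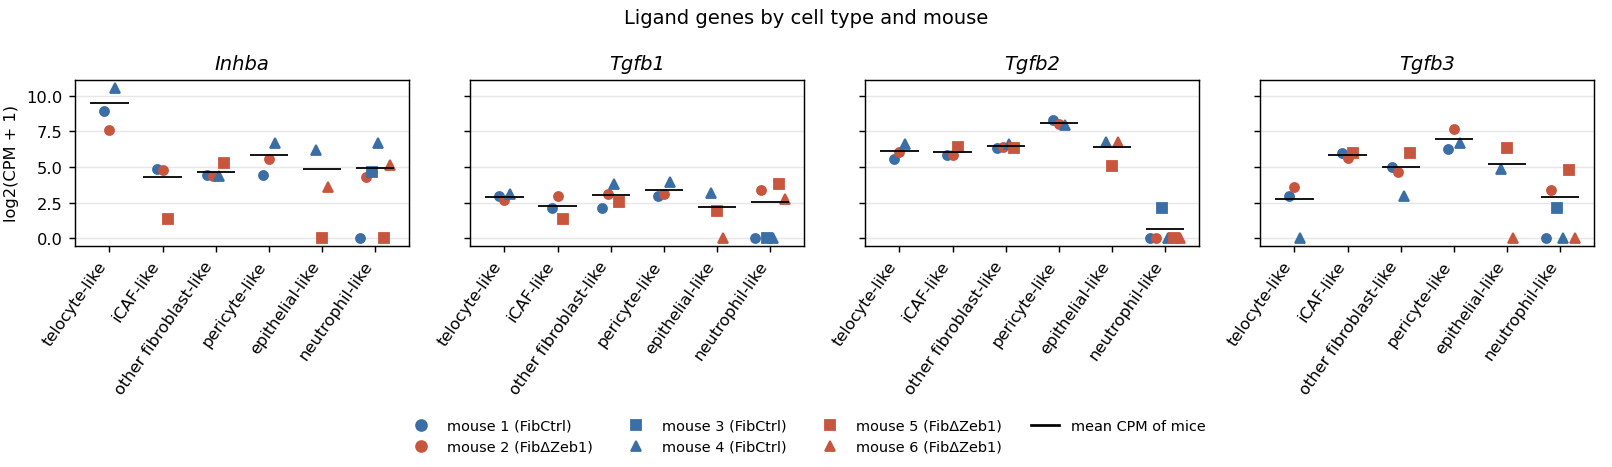
Levels of the 4 ligand genes as log2(CPM + 1) in the summed wells of each mouse (points, colored by genotype) and the mean CPM of the mice (lines), for cell types and mice with at least 10 wells. *Inhba* is highest in telocyte-like wells of all 3 mice shown, between 194 and 1531 CPM, while *Tgfb2* and *Tgfb3* have their highest means in pericyte-like wells (271 and 125 CPM) and *Tgfb1* stays at or below 14.6 CPM.

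The *Inhba* transcripts were very unequally spread over wells (plot of *Inhba* in each telocyte-like well). A single well of mouse 6 held 440 transcripts, 24.8% of those in all kept wells, and the 10 highest wells held 59.9%. For *Tgfbr2* the 10 highest wells held 9.71%. In mouse 6 the highest well held 85.7% of the *Inhba* of its 7 telocyte-like wells, in mouse 5 67.2%, in mouse 4 26.5% and in mouse 1 15.4%. Without that well the level in telocyte-like wells changed from 4046 to 809 CPM in mouse 6, from 827 to 287 CPM in mouse 5 and from 1531 to 1169 CPM in mouse 4. The 42 telocyte-like wells of mouse 2 held 142 *Inhba* transcripts, with a median of 0.5 per well, against 608 in the 33 wells of mouse 4, with a median of 4.

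**Figure D2:**
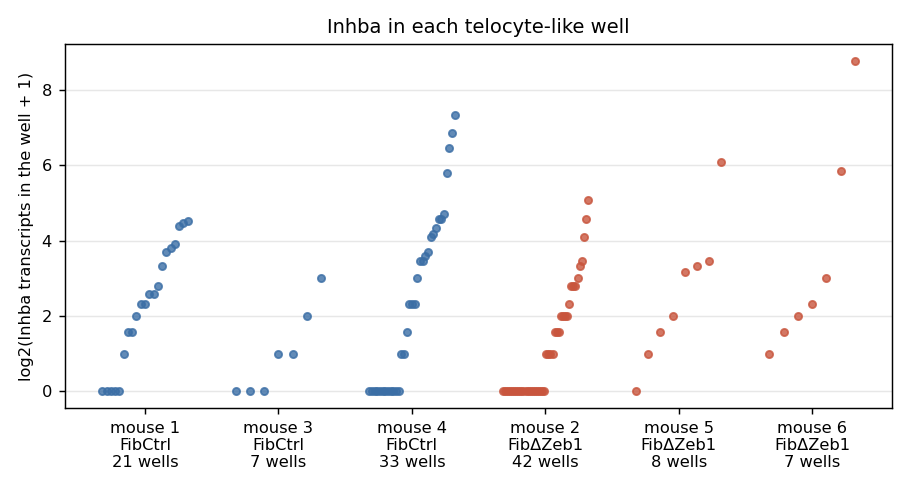
Each point is 1 telocyte-like well, with its *Inhba* transcripts as log2(transcripts + 1) on the vertical axis, sorted within each mouse and colored by genotype. Wells without *Inhba* lie at 0 in 5 of the 6 mice, and the highest wells hold 440 transcripts in mouse 6 and 161 in mouse 4.

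The 10 wells with most *Inhba* were all telocyte-like, came from mice 2, 4, 5 and 6, and carried 3 to 7 of the 9 telocyte markers. With a fibroblast score limit of 3, 6 of these 10 wells would be unnamed, among them the first and the second. The first of them also held 1225 transcripts of *Mmp13* and 568 of *Mmp10*, both matrix metalloproteinases, 473 of *Il1rl1*, which encodes the receptor of interleukin 33, and 133 of *Il11*. Among telocyte-like wells, 9 had a fibroblast score of 2 to 3, below the limit of 3 used for the other fibroblast classes. These 9 wells, from 4 mice and 6 of them from mouse 4, were compared with the other 109 after the values had been seen and without a test. They held 854 *Inhba* transcripts, which is 8386 CPM, against 395 CPM in the other 109.

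The members did not all move one way between these sets of wells. *Tgfbr2* was at 98.2 CPM in the 9 wells and 692 CPM in the 109, *Tgfbr3* at 0 and 71.8 CPM, and *Ltbp1* at 58.9 and 229 CPM, all lower in the 9 wells. *Tgfbr1* was at 187 and 107 CPM, *Tgfb2* at 335 and 61.8 CPM and *Smad7* at 265 and 57.6 CPM. In the 9 wells these are values of 19, 34 and 27 transcripts. The *Tgfb2* transcripts were found in 4 of the 9 wells, and the wells first and second in *Inhba* held 12 and 20 of them. All 9 wells had transcripts of *Col1a1*, *Col3a1* and *Pdgfra*, the fibroblast receptor for PDGF, at 3966, 2560 and 748 CPM. In the 109 wells these stood at 7553, 13068 and 1338 CPM. All of them are markers of the fibroblast score that divided the wells, so lower levels in the 9 wells follow in part from the division. *Krt8*, an epithelial keratin, was at 68.8 CPM in the 9 wells and 21.4 CPM in the 109, and *Epcam*, *Krt5* and *Ptprc* were at 0 in the 9 wells. *Krt8*, *Epcam* and *Krt5* are markers of the epithelial score, whose limit kept wells high in them out of both sets. With the 9 wells left out, the *Inhba* change of telocyte-like wells was 3.84 (adjusted p = 1.05e-05).

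*Tgfb3*, *Tgfbr3* and *Tgfbr1* were lower in telocyte-like than in the other fibroblast-like wells. Together with *Inhba*, 4 of the 9 members that passed the filter on low counts were called at an adjusted p under 0.05, 1 higher and 3 lower, against 11.3% of all 7886 genes tested (4.98% higher and 6.34% lower). Of the 3 lower members, *Tgfb3* passed that filter only through the class where it was high. The median log2 fold change was -0.35 over the 9 members and 0.01 over all genes. Without TMM scaling the share of higher genes among those called rose from 44.0 to 54.0% and the median of all genes from 0.01 to 0.13. Without FibCtrl mouse 1, 1 member was called, and without FibΔZeb1 mouse 2, 2 members. *Tgfbr3*, which encodes the co-receptor betaglycan (chromosome 5, 107106570 to 107289629, minus strand), was at 36.7, 104 and 15.1 CPM in telocyte-like wells of mice 1, 2 and 4 and at 594, 592 and 420 CPM in the other fibroblast-like wells. The ranges were far apart, and the log2 change was -3.58 ± 0.39 (adjusted p = 0.000511), a level 11.9-fold lower. This call was kept under all 12 alternatives tried, with changes between -4.48 and -3.16.

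*Tgfb3* was at 6.66, 10.9 and 0 CPM in telocyte-like wells, against 52.4, 35.2 and 12.6 CPM in the other fibroblast-like wells of the same mice. It was lower in each mouse, by -2.36 ± 0.50 on the log2 scale (adjusted p = 0.00828). Its telocyte-like levels rest on 2, 8 and 0 transcripts. *Tgfb3* passed the filter on low counts only through the other fibroblast-like wells, where it was high. This adjusted p is therefore not independent support for the difference. A stricter telocyte limit of 1.5 gave -1.85 and an adjusted p of 0.0508. Without FibCtrl mouse 1, without FibΔZeb1 mouse 2 and without the replicate block, *Tgfb3* did not pass the filter on low counts and had no test. *Tgfbr1*, the type I receptor gene (chromosome 4, 47353222 to 47414931, plus strand), was at 110, 102 and 95.6 CPM in telocyte-like wells and at 176, 191 and 147 CPM in the others, a change of -0.87 ± 0.19 (adjusted p = 0.00989). DESeq2 did not call *Tgfbr1* (adjusted p = 0.217). The 6-mouse fit also did not (-0.36, adjusted p = 0.403), nor did the fits without FibCtrl mouse 1 (adjusted p = 0.0812) and without FibΔZeb1 mouse 2 (adjusted p = 0.0782).

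*Tgfbr2* was at 808, 545 and 828 CPM in telocyte-like wells, the highest of the receptor genes there, and its change against the other fibroblasts was -0.15 ± 0.21 (adjusted p = 0.760). *Tgfb2* (-0.15 ± 0.26), *Smad3* (0.11 ± 0.22) and *Ltbp1* (-0.35 ± 0.24) also did not pass the test. *Smad7* gave -0.80 ± 0.30 (adjusted p = 0.127), and passed without FibCtrl mouse 4 (-1.21, adjusted p = 0.000194).

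**Figure D3:**
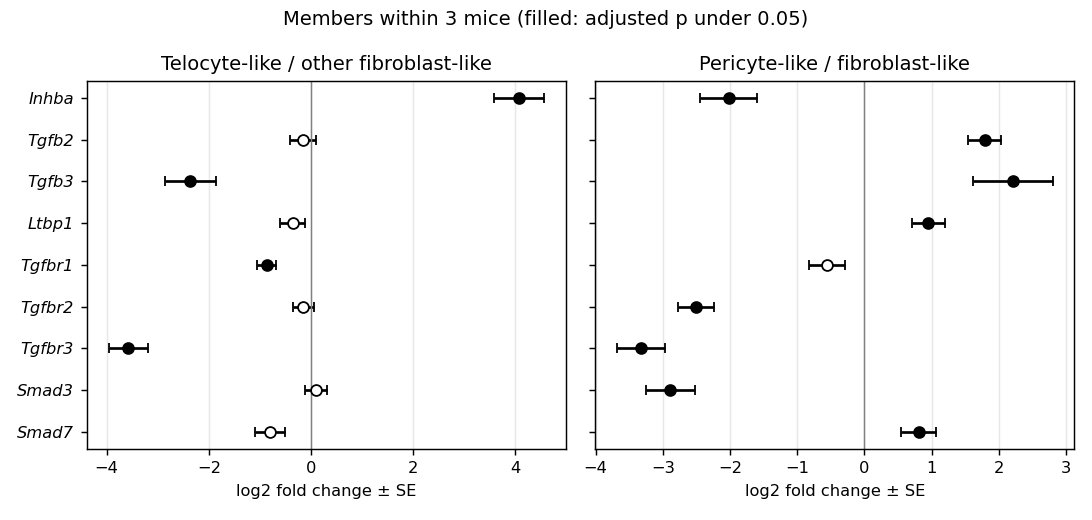
Log2 fold changes of the 9 members tested (points) with their standard errors (bars), for telocyte-like against other fibroblast-like wells and for pericyte-like against fibroblast-like wells, each within mice 1, 2 and 4. Filled points have an adjusted p under 0.05. *Inhba* is at 4.08 and *Tgfbr3* at -3.58 in the first panel, and *Tgfb2* is at 1.79 and *Tgfbr3* at -3.32 in the second.

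Pericyte-like wells differed from fibroblast-like wells in the levels of ligand and receptor genes. *Tgfb2* was at 311, 252 and 249 CPM in pericyte-like wells of mice 1, 2 and 4, and at 62.0, 68.8 and 86.6 CPM in their fibroblast-like wells. No value of one class reached the other, and the log2 change was 1.79 ± 0.24 (adjusted p = 2.06e-07), or 3.46-fold. *Ltbp1*, whose product stores latent TGF-beta (chromosome 17, 75005568 to 75392512, plus strand), was at 573, 396 and 395 CPM against 197, 275 and 164 CPM, a change of 0.95 ± 0.25 (adjusted p = 0.00325; without FibCtrl mouse 4, adjusted p = 0.0706).

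*Tgfb3* was at 74.1, 198 and 102 CPM against 45.8, 27.4 and 4.72 CPM, also higher in each of the 3 mice, by 2.21 ± 0.59 (adjusted p = 0.0490). Barcode counts in place of transcript counts moved this to an adjusted p of 0.0521, and a fit without the replicate block by mouse to 0.0667. *Smad7*, the inhibitory SMAD, was at 175, 181 and 146 CPM against 131, 72.3 and 75.5 CPM, a change of 0.81 ± 0.26 (adjusted p = 0.0200). Its call was lost in 6 of 10 alternatives, among them DESeq2 (adjusted p = 0.227) and the fits without FibΔZeb1 mouse 2 (0.50, adjusted p = 0.488) and without FibCtrl mouse 4 (adjusted p = 0.0742).

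*Tgfbr2*, *Tgfbr3* and *Smad3* were lower in pericyte-like wells. *Tgfbr2* (chromosome 9, 116084293 to 116175360, minus strand) was at 155, 114 and 139 CPM against 599, 630 and 899 CPM in fibroblast-like wells, 5.67-fold lower (log2 change -2.50 ± 0.27, adjusted p = 1.29e-09). *Tgfbr3* was at 74.1, 23.6 and 51.2 CPM against 514, 436 and 167 CPM (-3.32 ± 0.36, adjusted p = 3.06e-08). *Smad3*, which transmits both TGF-beta and activin signals (chromosome 9, 63646767 to 63757994, minus strand), was at 26.9, 11.8 and 21.9 CPM against 104, 108 and 148 CPM, 7.39-fold lower (-2.89 ± 0.36, adjusted p = 4.53e-08). These 3 genes were lower in all 3 mice and were called under all 10 alternatives. *Inhba* was at 20.2, 47.2 and 102 CPM against 90.3, 77.6 and 965 CPM and was lower too (-2.02 ± 0.43, adjusted p = 0.00412), but this call was lost in 4 of 10 alternatives: without FibCtrl mouse 1 (adjusted p = 0.274), without the replicate block by mouse (0.311), with only mt- genes counted as mitochondrial (0.225) and with a minimum of 4 wells (0.152). The fibroblast-like reference includes the telocyte-like wells. Without these, fibroblast-like wells of the same mice had 25.6, 23.0 and 21.0 CPM of *Inhba*, so that pericyte-like wells were below that reference in mouse 1 and above it in mice 2 and 4, a difference that was not tested. In all, 8 of 9 members were called in this comparison, 4 higher and 4 lower, against 20.1% of 8532 genes (9.06% higher and 11.1% lower), and *Tgfbr1* was the exception (-0.56 ± 0.27, adjusted p = 0.154). Median changes were -0.56 over the members and -0.03 over all genes. Without the replicate block 5 members were called.

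**Figure D4:**
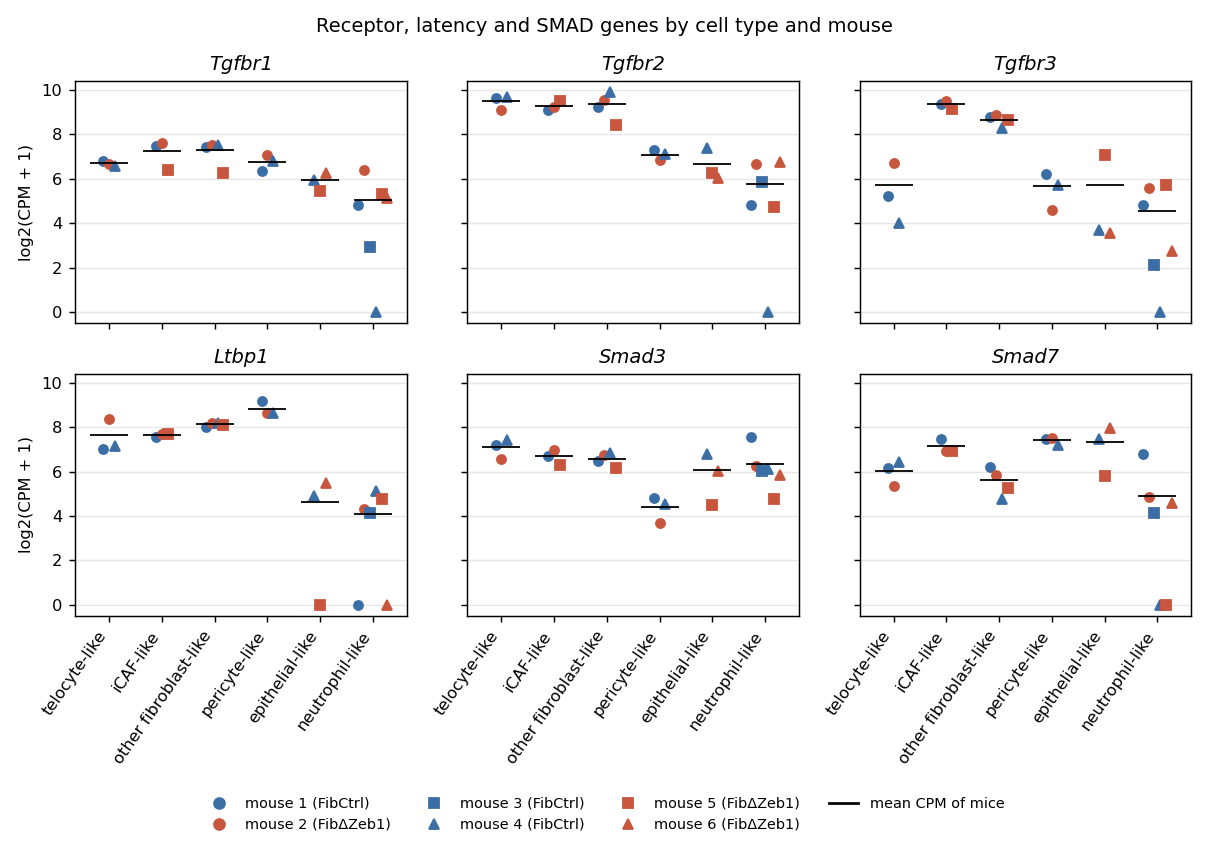
Levels of the receptor, latency and SMAD genes as log2(CPM + 1) per mouse (points, colored by genotype) with the mean CPM of the mice (lines), for cell types and mice with at least 10 wells. *Tgfbr3* separates iCAF-like and other fibroblast-like wells (means 656 and 404 CPM) from telocyte-like wells (51.8 CPM), and *Smad3* is lowest in pericyte-like wells (20.2 CPM).

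Among the 6 named classes with at least 10 wells in 3 or more mice, *Tgfbr3* was highest in iCAF-like wells (656 ± 82.0 CPM, n = 3 mice), above other fibroblast-like wells (404 ± 66.1 CPM, n = 4) without overlap, and the remaining 4 of these classes lay at 22.5 to 52.8 CPM with overlapping ranges. Unnamed wells had a mean of 108 CPM, and smooth muscle-like wells, given as a pooled value below, lay above iCAF-like wells. *Tgfbr2* did not differ beyond its spread between telocyte-like (727 ± 158 CPM), other fibroblast-like (661 ± 260 CPM) and iCAF-like wells (619 ± 88.8 CPM), and then fell to 136 ± 20.9 CPM in pericyte-like wells without overlap. *Tgfb2* had a step without overlap below pericyte-like wells (271 ± 34.7 CPM), a run of 4 overlapping classes between 65.6 and 86.1 CPM, and a further step to neutrophil-like wells (0 to 3.36 CPM). *Smad7* overlapped between pericyte-like (168 ± 18.7 CPM), epithelial-like (159 ± 98.2 CPM) and iCAF-like wells (139 ± 30.5 CPM), with telocyte-like (65.0 ± 23.4 CPM) and other fibroblast-like wells (48.3 ± 20.3 CPM) below. The ranges of *Smad3* overlapped at every step, from telocyte-like (135 ± 38.6 CPM) to pericyte-like wells. These orders are descriptions, and no class pair was tested beyond the comparisons named.

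Smooth muscle-like wells, 14 in all and at most 7 in a mouse, are given as pooled values without a spread over mice. *Tgfbr3* was at 1217 CPM there (95% exact Poisson interval 1001 to 1462, for counting error only), *Tgfbr2* at 674 CPM (516 to 862), and *Tgfb2* and *Tgfb3* at 0 transcripts, with an upper limit of the same interval at 40.0 CPM. *Inhba* was at 174 CPM (99.2 to 282), from 16 transcripts. The single smooth muscle-like well of mouse 3 held 14 of these and 35 of the 62 transcripts of *Tgfbr2*. Without that well, the pooled levels were 29.4 CPM for *Inhba* (2 transcripts in 13 wells), 397 CPM for *Tgfbr2* and 1252 CPM for *Tgfbr3*.

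In neutrophil-like wells, set against the fibroblast-like wells of all 6 mice, 8 of the 9 members tested were lower, and none was higher. The background is high in this comparison, since 75.8% of 5761 genes were called, 24.5% higher and 51.3% lower, and the median change of all genes was -0.97. Of *Tgfb2* a single transcript was found in 431 neutrophil-like wells, or 1.38 CPM (95% exact Poisson interval 0.0350 to 7.70), against 70.6 CPM in fibroblast-like wells. *Smad3* was the member not called, at -0.46 ± 0.35 (adjusted p = 0.212), with 26.0 to 189 CPM in neutrophil-like and 73.0 to 148 CPM in fibroblast-like wells of the 6 mice. Its value was -0.87 and passed without a filter on low counts (adjusted p = 0.0320), and turned to 0.05 when only genes named mt- were counted as mitochondrial.

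Other genes of the pathway were described from a list of 50 genes found in the files, outside the 10 members. In telocyte-like against other fibroblast-like wells, 12 of the 36 tested passed, 7 higher and 5 lower, with a median change of -0.08, where 11.3% of all genes tested were called. The largest increases were those of *Tgfbi*, a matrix protein induced by TGF-beta (3.47 ± 0.30), *Tagln* (2.51 ± 0.47) and *Acta2* (2.46 ± 0.34), both contractile genes, and *Inhbb*, which encodes the inhibin beta B chain (2.51 ± 0.37). *Ltbp4* (-1.86 ± 0.24), *Fbn1*, which encodes fibrillin-1 (-1.38 ± 0.24), *Postn* (-0.78 ± 0.20) and *Skil*, a repressor of SMAD activity (-0.73 ± 0.20), were the largest decreases.

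In pericyte-like against fibroblast-like wells, 16 of 36 passed, 9 higher and 7 lower, where 20.1% of all genes tested were called. *Acta2* (2.30 ± 0.27), *Tagln* (2.29 ± 0.53), *Id1* (2.10 ± 0.25) and *Lrrc32*, which encodes the cell-surface anchor GARP of latent TGF-beta (1.74 ± 0.25), were the largest increases. *Fst*, which encodes the activin antagonist follistatin, was lower by -4.50 ± 0.70 (adjusted p = 3.69e-06), *Pmepa1* by -3.37 ± 0.28, *Ltbp3* by -1.71 ± 0.28 and *Ltbp4* by -1.61 ± 0.26. In neutrophil-like wells 28 of 32 passed, 5 higher and 23 lower, where 75.8% of all genes tested were called. There *Thbs1* (2.86 ± 0.28), *Tgif1* (2.45 ± 0.34), *Cdkn1a* (2.10 ± 0.29) and *Id1* (1.82 ± 0.30) had the largest increases and *Postn* (-5.28 ± 0.37), *Smad6* (-5.11 ± 0.85), *Fbn1* (-4.56 ± 0.39) and *Cyr61* (-4.46 ± 0.37) the largest decreases.

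Profiles of log2(CPM + 1) over 22 combinations of mouse and cell type were compared across 9337 genes, as a description. The profiles share 6 mice, and those of neutrophil-like wells are shallow. Most like *Inhba* were *Mmp10* (r = 0.76), *Emid1* (0.74) and *Fblim1* (0.74). For *Tgfbr3* these were *Eln*, which encodes elastin (0.91), *Gstm1* (0.91) and *Sfrp2* (0.90), and for *Tgfbr2* *Ccdc80* (0.94), *Lgmn* (0.93) and *Slc39a1* (0.90). *Tgfb3* was nearest to *Adamtsl1* (0.84), *Art3* (0.83) and *Cd109* (0.82), and *Smad3* to *Spon1* (0.75), *Trf* (0.72) and *Pde10a* (0.72). The closest genes of the others were *Cog7*, *Dip2a* and *Rab3gap1* for *Tgfb2* (0.98 each), *Dbn1* (0.90), *Acap3* (0.89) and *Tppp3* (0.88) for *Ltbp1*, *Slc38a10* (0.95), *Glg1* (0.94) and *Sepw1* (0.94) for *Tgfbr1*, and *Atp6v1h* (0.94), *Ddx42* (0.94) and *Vps13b* (0.93) for *Smad7*. *Tgfb1* was too low to be compared.

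Fibroblast-like wells of FibΔZeb1 and FibCtrl mice gave no member a difference that passed the test, among the 9 tested. The edgeR quasi-likelihood test called 0 of 8453 genes (0%) at an adjusted p under 0.05, 134 genes had an unadjusted p under 0.05, and DESeq2 called 1 gene, which was no member (it gave *Inhba* no adjusted p). None of the members was among those with an unadjusted p under 0.05. The genotypes overlapped in all 10 members, while 6.44% of all genes had groups that did not overlap.

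*Inhba* was at 90.3, 50.8 and 965 CPM in fibroblast-like wells of FibCtrl mice 1, 3 and 4, and at 77.6, 113 and 2139 CPM in those of FibΔZeb1 mice 2, 5 and 6. Each group thus held 2 lower values and 1 value far above them, in mice 4 and 6, where 66.0% and 50.0% of the fibroblast-like wells were telocyte-like, against 7.48 to 41.2% in the other mice. A single well held 440 of the 513 *Inhba* transcripts behind the value of mouse 6, and 161 of 613 in mouse 4. The log2 change was 1.06 ± 1.75, and it turned to -1.85 ± 1.34 without FibΔZeb1 mouse 6, and to -2.34 ± 1.08 in the 4 mice with at least 30 fibroblast-like wells. How far the makeup of the wells accounts for these values was not tested.

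*Tgfb2* was at 62.0, 33.9 and 86.6 CPM in FibCtrl and at 68.8, 75.0 and 138 CPM in FibΔZeb1 mice (0.49 ± 0.34). *Tgfbr2* was at 599, 534 and 899 against 630, 619 and 555 CPM (-0.13 ± 0.24), and *Tgfbr3* at 514, 454 and 167 against 436, 479 and 296 CPM (0.12 ± 0.44). *Smad3* (-0.13 ± 0.26), *Smad7* (0.15 ± 0.41), *Ltbp1* (0.26 ± 0.24), *Tgfbr1* (0.20 ± 0.32) and *Tgfb3* (0.22 ± 0.78) had log2 changes within about 1 SE of 0. *Tgfb1*, with 1 to 15 transcripts per mouse in these wells, was not tested. Of the 37 other pathway genes tested, none passed the edgeR test and 1 had an unadjusted p under 0.05. The summed level of the 12 epithelial markers in fibroblast-like wells ran from 27.7 to 127 CPM in FibCtrl and from 9.58 to 346 CPM in FibΔZeb1 mice, highest in mouse 6, and its part in the values was not tested.

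**Figure D5:**
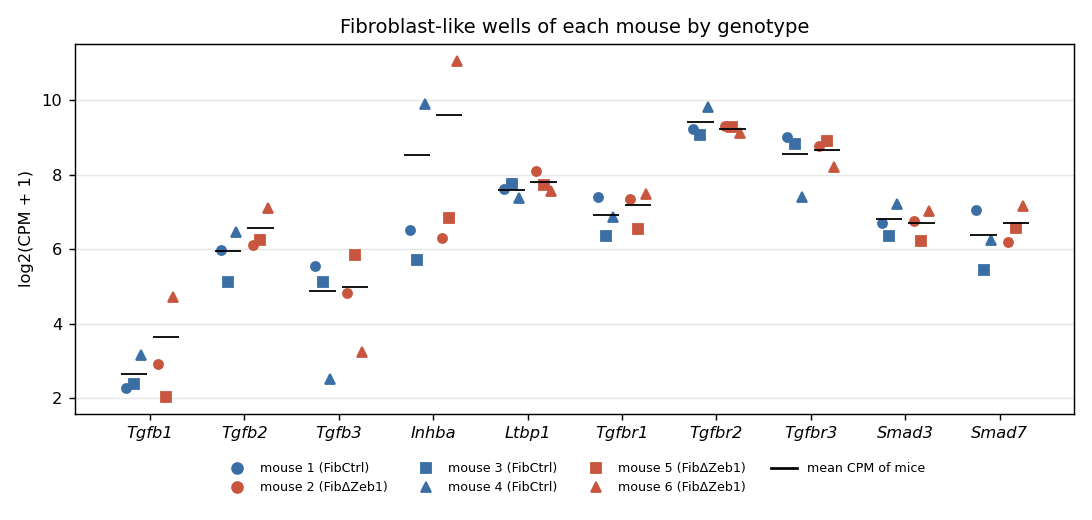
Levels of the 10 members as log2(CPM + 1) in the summed fibroblast-like wells of each mouse (points), with the mean CPM of the 3 mice of a genotype (lines). The genotypes overlap in all 10 genes, and *Inhba* is spread over the widest range, from 50.8 CPM in FibCtrl mouse 3 to 2139 CPM in FibΔZeb1 mouse 6. In mouse 6 a single well holds 440 of the 513 *Inhba* transcripts.

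At least 10 wells of both classes were found in 2 FibCtrl mice and 1 FibΔZeb1 mouse, so these data do not show whether the telocyte-like pattern differed between genotypes. The fit assumes that the lone FibΔZeb1 mouse varies like the FibCtrl mice. It called 0 of 9 members (edgeR, 3 at an unadjusted p under 0.05; DESeq2 0) and 0.0679% of 8836 genes (0.0566% higher and 0.0113% lower), from which nothing is read about genotype. With all 6 mice, at a minimum of 4 wells of each class, the difference was 0.38 ± 1.71 (log2, SE) for *Inhba* and 1.24 ± 0.66 for *Tgfbr3* (edgeR, adjusted p = 1 for both).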

How the data were processed

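SORT-seq (CEL-Seq2 chemistry) plates of 6 mice were analysed. Per the study's methods, the authors aligned the cDNA read against mouse transcripts (GRCm38) using BWA; the submitters' processing notes also list Cell Ranger 2.1.1. For each well and gene, the authors deposited whole counts of the molecular barcodes seen. They also deposited estimated counts of transcripts, in which molecules that share a barcode are corrected for. Neither is normalized.

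Wells with 100 to 6000 genes and under 10% transcripts from genes of the mitochondrial chromosome were kept; spike-ins (7.85 to 18.6% of a plate's transcripts) were left out. Limits of the marker scores (mean log2 of transcripts per 10000 + 1) were neutrophil 2, pericyte 1, epithelial 1, fibroblast 3, smooth muscle 1.5, telocyte 1 (with fibroblast 2) and iCAF 1.5. Fibroblast and smooth muscle classes had to lie below the neutrophil, pericyte and epithelial limits, and telocyte came before smooth muscle. Pericyte-like wells lay below the neutrophil limit. Neutrophil-like and epithelial-like wells lay below the limits of each other, of pericyte and of fibroblast. Wells that met no rule stayed unnamed. No doublet caller was run. Transcript counts were summed per mouse and class, for mice with at least 10 wells of each class, rounded and analysed in edgeR 4.0.16, using its quasi-likelihood test after filterByExpr and TMM; comparisons of classes kept the mouse as a replicate block, since both classes came from the same animals, with Benjamini-Hochberg adjustment over all genes. SE is the log2 change divided by the root of F. Alternatives included DESeq2 1.42.0 (both in R 4.3.3), other limits and filters, and leaving out single mice. Scripts were tested on simulated data. Named genes are the 10 members, the listed pathway genes past the threshold (up to 4 per direction) and the 3 most similar genes per member. Other genes named for the telocyte-like wells were chosen after their values were seen. The members, marker lists and pathway list were chosen with earlier results of these data known. Each plate is 1 mouse, so p-values describe the spread between mice. Intervals cover counting error only.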

Additional observations from a re-analysis of the deposited data

Results flagged for a closer look

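Transcripts of all 10 members were also found in the wells that failed the filters, which no main comparison used. The alternative that counted only mt- genes as mitochondrial kept 1912 wells and so took in part of them. The wells that failed the filters held 668 transcripts of *Inhba*, 32 of *Tgfb1*, 304 of *Tgfb2*, 160 of *Tgfb3*, 802 of *Ltbp1*, 429 of *Tgfbr1*, 1719 of *Tgfbr2*, 779 of *Tgfbr3*, 417 of *Smad3* and 483 of *Smad7*. For *Inhba* that is set against 1776 in the kept wells. Groups of 3 mice were too small for a check of single outlying samples, and the telocyte-like pattern could not be compared between genotypes with 1 FibΔZeb1 mouse.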

How the results depend on the processing

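Among the values of single members under all alternatives, 393 kept their direction and their side of the threshold, 19 lost the threshold, 5 gained it and 28 changed sign, 19 of these in the genotype difference, where no member was called. The causes were not tested. In the genotype difference, leaving out each mouse in turn gave log2 changes of -1.85 to 3.24 for *Inhba*, -0.46 to 1.29 for *Tgfb3*, -0.0035 to 0.59 for *Tgfbr1*, -0.28 to 0.061 for *Tgfbr2*, -0.27 to 0.48 for *Tgfbr3*, -0.29 to 0.056 for *Smad3* and -0.10 to 0.74 for *Smad7*. Only mice with at least 30 fibroblast-like wells gave -2.34 for *Inhba*, -0.12 for *Tgfbr1* and -0.32 for *Smad7*. All kept wells without *Ptprc* or *Epcam* gave -0.060 for *Tgfbr3* and -0.12 for *Smad7*, thinning gave -0.41 for *Tgfbr1*, and counting only mt- genes as mitochondrial gave 0.085 for *Tgfbr2* (and 0.048 for *Smad3* in neutrophil-like wells). Over all genes, DESeq2 and the fit without a filter each called 1 gene by genotype.

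For telocyte-like wells, leaving out each mouse gave 1 to 5 called members and 391 to 1190 called genes against 893, with -0.36 to 0.071 for *Tgfb2* and -0.037 to 0.42 for *Smad3*. DESeq2 called 506 genes, and a minimum of 4 wells gave 0.076 for *Tgfb2*. For pericyte-like wells DESeq2 called 1121 genes against 1717, leaving out each mouse 1037 to 1623, and without the replicate block 5 members passed against 8. For neutrophil-like wells 7737 genes were called without a filter and 2845 without the replicate block, against 4367; without the block 3 members were called in telocyte-like wells against 4.

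The genotype difference of the telocyte-like pattern had 6 called genes, 3 with DESeq2, 22 with a fibroblast score of at least 3 (*Tgfb2* 0.43) and 0 with a minimum of 4 wells (*Inhba* 0.38, *Tgfbr1* 0.45, *Smad7* 0.21). Leaving out single mice was not run there, since no residual degrees of freedom or no FibΔZeb1 mouse remained. The ratios of *Inhba* to *Tgfb1*, *Tgfb2* and *Tgfb3* passed the exact test with all 6 mice (5.37, 3.14 and 6.03; p = 0.03125), and without the highest well those to *Tgfb1* (4.58) and *Tgfb3* (4.94) did (adjusted exact p = 0.0469). Without the single well of mouse 3, pooled smooth muscle-like levels went from 174 to 29.4 CPM for *Inhba* and from 674 to 397 CPM for *Tgfbr2*. This setting and those for the minimum of 4 or 30 wells, the fibroblast score and the highest well were chosen after seeing the data. *Tgfb1* and *Tgfb3* rest on few transcripts, which limits their precision.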
